A study of Rattus norvegicus with 6 samples.

Results

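The NADPH oxidase subunits examined were 6 genes: Nox1, Nox4, Cybb, Cyba, Ncf1 and Ncf4, which encode subunits of the NADPH oxidases. Their probes were found among the probes other than controls by the RefSeq accession of each gene. Each had 1 probe spotted in 2 copies, so the members were 6 of 15443 named genes and 6 of 30367 probes. Total RNA from blocks of rat liver was hybridised in 1 colour to 6 Agilent arrays, 1 for each animal. The 3 fibrosis livers came from rats with hepatic fibrosis induced by bile duct ligation, in which the bile duct is tied off and bile backs up into the liver. The 3 normal livers came from rats described only as normal, and a sham operation is not mentioned. Strain, sex, age and the time after ligation are not given in the sources used here.

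An NADPH oxidase carries electrons from NADPH across a membrane to oxygen and makes superoxide or hydrogen peroxide. In the phagocyte enzyme the catalytic subunit NOX2, from Cybb, sits in the membrane with p22phox, from Cyba, and works only once cytosolic subunits, among them p47phox (Ncf1) and p40phox (Ncf4), and a Rac GTPase have joined it. NOX4, from Nox4, also needs p22phox but none of the cytosolic subunits, releases mostly hydrogen peroxide, and is known in liver from hepatocytes and stellate cells and from its induction by transforming growth factor beta in myofibroblasts. NOX1, from Nox1, is best known from the epithelium of the colon.

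The promoters of the 4 members with a called or borderline difference and an entry in the sequence table are shown first, because Nox4 differed in the opposite direction to the other 3. Each run is the 250 bases before the annotated start, 5′ to 3′ on the gene's strand, from RefSeq on the GRCr8 assembly. Capitals mark matches to GGGCGG (the GC box), CCAAT (the CCAAT box) and GAGGAA (the core bound by PU.1, a transcription factor of myeloid cells), each searched on both strands, and TATAAA (the TATA box) was searched in the same way.
Nox4, chr1:150313639-150313888, plus strand: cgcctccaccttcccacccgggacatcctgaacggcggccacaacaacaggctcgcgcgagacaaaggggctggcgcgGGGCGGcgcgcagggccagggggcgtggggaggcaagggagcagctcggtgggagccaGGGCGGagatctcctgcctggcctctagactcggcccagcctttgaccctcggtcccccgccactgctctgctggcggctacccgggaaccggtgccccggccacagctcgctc
Cybb, chrX:16065066-16065315, minus strand: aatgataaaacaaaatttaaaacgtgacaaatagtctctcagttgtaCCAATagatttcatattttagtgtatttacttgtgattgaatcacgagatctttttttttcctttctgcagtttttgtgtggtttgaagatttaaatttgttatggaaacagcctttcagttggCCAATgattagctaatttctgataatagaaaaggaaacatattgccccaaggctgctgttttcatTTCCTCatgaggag
Cyba, chr19:67404215-67404464, minus strand: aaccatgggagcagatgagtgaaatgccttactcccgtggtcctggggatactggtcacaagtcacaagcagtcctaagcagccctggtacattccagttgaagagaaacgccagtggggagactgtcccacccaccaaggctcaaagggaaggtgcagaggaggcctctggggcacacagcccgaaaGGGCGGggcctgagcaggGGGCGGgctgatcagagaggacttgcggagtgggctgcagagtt
Ncf1, chr12:28121635-28121884, plus strand: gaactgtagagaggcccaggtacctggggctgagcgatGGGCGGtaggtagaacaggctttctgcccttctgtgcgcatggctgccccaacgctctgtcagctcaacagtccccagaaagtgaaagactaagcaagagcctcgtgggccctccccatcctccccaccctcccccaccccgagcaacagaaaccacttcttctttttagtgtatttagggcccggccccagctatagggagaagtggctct

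The Nox4 promoter had 72.8% G and C and held GC boxes at -172 to -167 and at -114 to -109, counted from the base before the start as -1. The Cybb promoter had 32.0% G and C, held CCAAT at -203 to -199 and at -79 to -75, and held GAGGAA on the opposite strand at -14 to -9, which reads TTCCTC in the run above. The Nox1 promoter, not shown, also held GAGGAA, at -37 to -32. The Cyba promoter, at 59.6% G and C, held GC boxes at -62 to -57 and -44 to -39, and the Ncf1 promoter, at 58.4%, held 1 at -212 to -207. TATAAA was in none of these windows. Among 33469 rat promoters of the same length, 30.5% held GGGCGG, 34.0% CCAAT, 23.3% GAGGAA and 12.9% TATAAA, so each match is of a kind found in many genes. No 2 of the marked matches overlap. Ncf4 has no entry there.

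All values below are log2 processed signals minus the 75th percentile of the same array, which lay between 4840 and 6401 signal units on the fibrosis arrays and between 3755 and 4386 on the normal arrays. A probe's value can be compared between arrays, but not with the value of another probe. The scanner software marked some spots as uneven or as outliers, and the share marked was 18.8% to 33.0% on fibrosis arrays and 24.0% to 35.2% on normal arrays. Among spots brighter than the 75th percentile it was 48.6% to 67.1% and 55.1% to 79.9%. Marked spots numbered 0 of 12 for Cyba and Ncf1, 1 for Nox4, 3 for Cybb, 4 for Nox1 and 9 for Ncf4. Tests were therefore made with marked spots left out, the setting fixed for this comparison, and with them kept. A difference was called at an adjusted p under 0.05 in the limma fit over all tested probes. All 6 arrays shared 1 slide and 1 scan, but fibrosis array 1 lay in the first row of the slide with the 3 normal arrays, and fibrosis arrays 2 and 3 lay in the second row.

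With marked spots left out, 5 of the 6 members could be tested, and 2 were called higher and 1 lower in fibrosis. Over all 12620 probes tested, 15.2% were called higher and 4.83% lower. With marked spots kept, 4 of 6 members were called higher and 1 lower, against 12.4% and 6.79% of 19731 probes. In that setting the arrays of the 2 groups did not overlap for 5 members, 4 higher and 1 lower in fibrosis, against 19.1% of all probes without overlap and higher and 19.3% without overlap and lower. Among the 9575 probes with an unmarked value on every array these shares were 23.8% and 14.5%, and of the 3 members among them Cyba and Ncf1 were higher and Nox4 lower. Of all calls with marked spots left out 75.8% were higher in fibrosis, and this share was 64.6% with marked spots kept, 64.9% after normexp background correction, 57.6% after quantile normalization, 54.0% after scaling to the array median and 92.7% after scaling to the E1A control probes. Scaling to the array median with marked spots kept turned the majority, with 1957 probes called higher and 3505 lower, or 35.8% higher, at a median of -0.41 over all probes. Of the members 2 were then called higher and 1 lower. The median difference over all probes was -0.01 with marked spots left out and -0.10 with them kept. The members' median was 1.22 over the 5 tested and 1.23 over all 6.

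**Figure D1:**
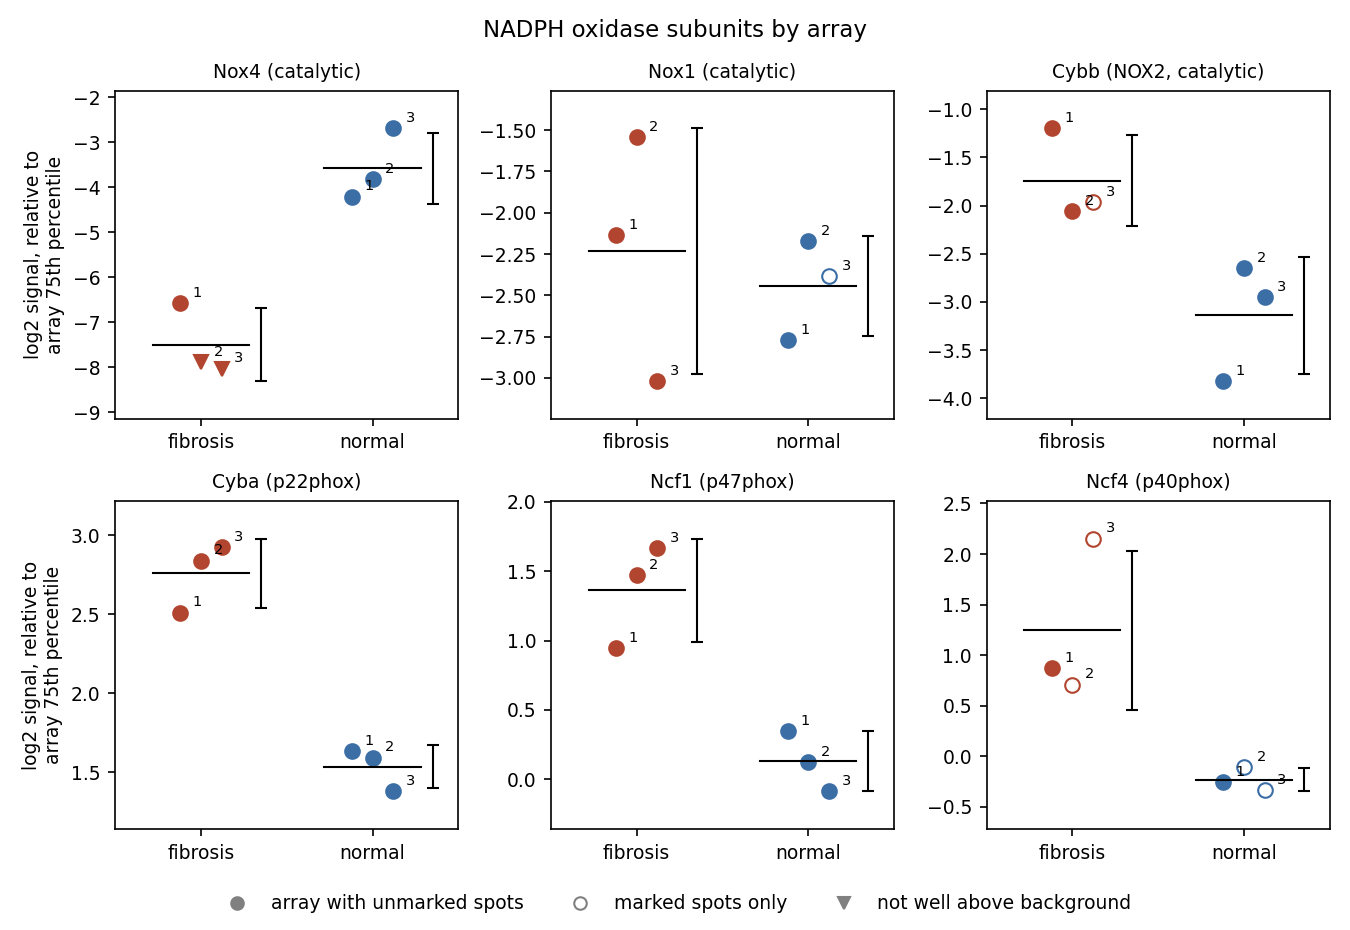
Log2 signal of each subunit relative to the array's 75th percentile, with all spots kept. Each point is 1 array, numbered by replicate, lines and bars give the mean and SD of 3 arrays, open circles are arrays with marked spots only, and triangles are not well above background. Nox4 lies lower in fibrosis than in normal liver, Cybb, Cyba, Ncf1 and Ncf4 lie higher without overlap, and the Nox1 groups overlap.

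Nox4, which encodes the catalytic subunit that needs no cytosolic partners, fell in fibrotic liver. Its log2 signal was -6.57, -7.90 and -8.04 on fibrosis arrays 1, 2 and 3, against -4.21, -3.83 and -2.70 on normal arrays 1, 2 and 3. Every fibrosis array lay below every normal array, and fibrosis arrays 2 and 3 lay below array 1. Before scaling these were 67.2, 20.3 and 19.5 signal units in fibrosis and 211, 309 and 580 units in normal liver. The probe was well above background on 1 of 3 fibrosis arrays and on 3 of 3 normal arrays, so its level on fibrosis arrays 2 and 3 is only bounded from above.

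With the 1 marked spot left out, normal array 3 read -2.94, and the means were -7.50 ± 0.81 in fibrosis and -3.66 ± 0.65 in normal liver (SD, n = 3 each). The difference was -3.85 (SE 0.47), or 14.4-fold lower in fibrosis, with an adjusted p of 0.000935 in limma. With that spot kept it was -3.92 (SE 0.50), or 15.2-fold lower, with an adjusted p of 0.00133 in limma. Raising the 2 fibrosis values below background to the lowest signal well above background on their own array gave -3.20, or 9.17-fold lower. That setting was chosen after seeing the data.

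Within the first slide row, where fibrosis array 1 stood beside the 3 normal arrays, the Nox4 difference was -2.92, with an adjusted p of 0.0186 in limma. After normexp background correction, which raises dim signals, it was -2.09 with an adjusted p of 0.000712 in limma. The call held when any 1 array was left out, with differences between -4.31 and -3.48. In RNA from whole tissue, fewer cells that hold a transcript and less transcript in each cell cannot be told apart.

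Hepatocytes and stellate cells are both known sources of Nox4, and the summed signals of their markers differed in opposite directions. The 15 hepatocyte markers on the array were all above background on every array. Their summed signal, in multiples of the array's 75th percentile, was 118 to 156 in fibrosis and 210 to 228 in normal liver, without overlap. That percentile was itself higher on every fibrosis array than on any normal array. The sums were not computed under another scaling, so this gap depends on the scaling used. Of the 15 markers 3 could be tested with marked spots left out and 0 were called in limma, with 0 higher and 1 lower at an unadjusted p under 0.05. With marked spots kept, 2 of 15 fell, at a median of -0.76 over the 15. Over all probes 6.79% were called lower in that setting, and 4.83% with marked spots left out. Scaled to the array median, 9 of 15 were called lower, and 1 after quantile normalization, both with marked spots kept. The 2 that fell with marked spots kept and scaling to the 75th percentile were Slc10a1 and Cyp2e1. Slc10a1, the bile acid uptake transporter, was at -1.42 (SE 0.28, adjusted p 0.00940 in limma). Cyp2e1, a drug-metabolising cytochrome, was at -0.76 (SE 0.22, adjusted p 0.0458 in limma). Hnf4a, the liver transcription factor, differed by -0.82 (SE 0.41, adjusted p 0.206 in limma) with marked spots left out, and Ttr, the thyroxine carrier, by -0.85 (SE 0.28, adjusted p 0.0734 in limma).

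Of the stellate cell and myofibroblast markers, 7 of the 8 tested rose with marked spots left out and 9 of 13 with them kept, with medians of 2.19 and 1.92. Over all probes 15.2% and 12.4% were called higher in the same settings. Vim, an intermediate filament protein of mesenchymal cells, rose by 3.12 (SE 0.31, adjusted p 0.000598 in limma), and Cygb, a globin of stellate cells, by 2.99 (SE 0.40, adjusted p 0.00155 in limma). Col1a1, a chain of type I collagen, rose by 3.19 (SE 0.64, adjusted p 0.0106 in limma) with marked spots kept. The list's summed signal was 22.9 to 45.5 in fibrosis and 9.36 to 14.4 in normal liver, while the Nox4 signal was lower in fibrosis. The part of any cell type in the Nox4 difference was not tested.

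Cybb encodes the catalytic subunit of the phagocyte oxidase. With all spots kept its log2 signal was -1.20, -2.06 and -1.97 on fibrosis arrays 1, 2 and 3, against -3.82, -2.65 and -2.95 on normal arrays 1, 2 and 3. The groups did not overlap, and the widest gap to the rest of a group was that of normal array 1. Fibrosis array 3 had marked spots only. With marked spots kept the difference was 1.40 (SE 0.38), or 2.64-fold higher, with an adjusted p of 0.0352 in limma. With them left out, fibrosis array 3 dropped out of the fit, and the difference of 1.46 (SE 0.46) over 2 fibrosis and 3 normal arrays had an adjusted p of 0.0641 in limma. The Cybb call thus depended on the spots kept. Without normal array 1 the difference was 1.06, with an adjusted p of 0.108 in limma, and without fibrosis array 1 it was 1.13, with an adjusted p of 0.103 in limma, both with marked spots kept. Within the first slide row it was 1.94 with an adjusted p of 0.0743 in limma.

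Cyba encodes p22phox, the membrane partner that NOX1, NOX2 and NOX4 share. Its log2 signal was 2.51, 2.84 and 2.93 on fibrosis arrays 1, 2 and 3, against 1.64, 1.59 and 1.38 on normal arrays 1, 2 and 3. All its spots were unmarked, and the groups did not overlap. The means were 2.76 ± 0.22 in fibrosis and 1.54 ± 0.14 in normal liver (SD, n = 3 each). Cyba rose by 1.22 (SE 0.24), or 2.33-fold, with an adjusted p of 0.00961 in limma, or 0.00937 with marked spots kept elsewhere on the arrays. Cyba moved opposite to Nox4, and in the direction of the phagocyte subunits. Within the first slide row the difference was 0.97 with an adjusted p of 0.132 in limma.

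Ncf1 encodes p47phox, which organises the cytosolic complex once phosphorylated. Its log2 signal was 0.95, 1.47 and 1.67 on fibrosis arrays 1, 2 and 3, against 0.35, 0.12 and -0.08 on normal arrays 1, 2 and 3. The groups did not overlap, and fibrosis array 1 was the nearest to the normal arrays. The means were 1.36 ± 0.37 in fibrosis and 0.13 ± 0.22 in normal liver (SD, n = 3 each). Ncf1 rose by 1.23 (SE 0.28), or 2.35-fold, with an adjusted p of 0.0171 in limma, or 0.0168 with marked spots kept elsewhere. Within the first slide row the difference was 0.82 with an adjusted p of 0.225 in limma.

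Ncf4 encodes p40phox, which binds a membrane lipid of the phagosome. Its log2 signal with all spots kept was 0.87, 0.71 and 2.15 on fibrosis arrays 1, 2 and 3, against -0.25, -0.11 and -0.33 on normal arrays 1, 2 and 3. The groups did not overlap, and fibrosis array 3 stood well above the other two. Only fibrosis array 1 and normal array 1 had an unmarked spot, so Ncf4 was not tested with marked spots left out. With them kept the difference was 1.47 (SE 0.39), or 2.78-fold higher, with an adjusted p of 0.0316 in limma. Without fibrosis array 3 it was 1.02 with an adjusted p of 0.0179 in limma, and within the first slide row it was 1.10 with an adjusted p of 0.338 in limma.

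Scaling to the array median in place of the 75th percentile gave 0.76 for Cyba and 0.77 for Ncf1 with marked spots left out, and neither was then called, with adjusted p of 0.365 and 0.359 in limma. In that fit Nox4, at -4.31, had an adjusted p of 5.70e-13 in limma, against 0.000935 at -3.85 in the main fit. The p-values there thus did not follow the size of the differences alone. That scaling also moved the median of all probes to -0.48. Both scalings subtract the same number from every probe of an array, so a probe's distance from that median hardly changes by construction. The distance was 1.24 for Cyba and 1.25 for Ncf1 and gives no support of its own to either rise. With marked spots kept, Cyba (0.90) was called under the array median too, and with quantile normalization it was called at 1.51.

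Nox1 encodes the catalytic subunit known best from colon. Its log2 signal was -2.13, -1.54 and -3.02 on fibrosis arrays 1, 2 and 3, against -2.77, -2.17 and -2.39 on normal arrays 1, 2 and 3. The groups overlapped, and fibrosis arrays spread over a wider range than normal arrays. The difference was 0.26 (SE 0.46, adjusted p 0.752 in limma) with marked spots left out, over 3 fibrosis and 2 normal arrays, and 0.21 (SE 0.39, adjusted p 0.754 in limma) with them kept. Its sign turned under quantile normalization (-0.40), under scaling to the array median (-0.22) and without fibrosis array 2 (-0.083). No direction can be given for Nox1.

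**Figure D2:**
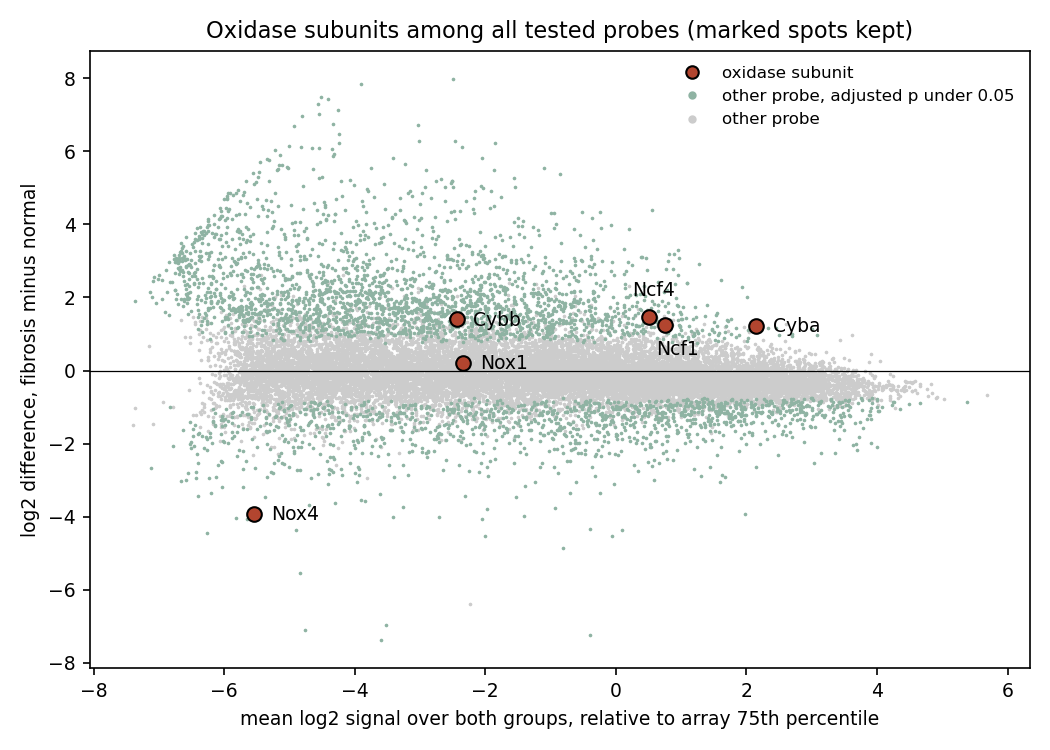
Log2 difference (fibrosis minus normal) against mean log2 signal relative to the array's 75th percentile for the 19731 probes tested with marked spots kept. Grey and green points are other probes without and with an adjusted p under 0.05, and red points are the 6 subunits. Nox4 lies at -3.92, with 2 fibrosis arrays not well above background, 4 phagocyte subunits lie between 1.22 and 1.47, and Nox1 lies at 0.21.

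Nox4 was then set against each phagocyte subunit as the log2 ratio of their signals on the same array, a quantity that does not depend on how the array is scaled. The ratio itself compares different probes and has no meaning as a level, and only its change between groups is read. Nox4 minus Cyba was -9.09, -10.74 and -10.96 on fibrosis arrays 1, 2 and 3, against -5.85, -5.42 and -4.32 on normal arrays 1, 2 and 3. Nox4 minus Ncf1 was -7.52, -9.37 and -9.70 on fibrosis arrays, against -4.56, -3.95 and -2.85 on normal arrays, both with marked spots left out. For each the groups were far apart, with fibrosis array 1 the nearest to the normal arrays.

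Nox4 minus Cybb with marked spots left out was -5.38 and -5.74 on fibrosis arrays 1 and 2, against -0.39, -1.18 and 0.01 on normal arrays 1, 2 and 3. Nox4 minus Ncf4, with marked spots kept, was -7.45, -8.61 and -10.19 on fibrosis arrays, against -3.96, -3.72 and -2.36 on normal arrays. Neither pair of groups overlapped. The change in the ratio was -5.04 against Cybb, -5.07 against Cyba, -5.08 against Ncf1 and -5.40 against Ncf4. Since Nox4 was not well above background on fibrosis arrays 2 and 3, these sizes are not exact. With those Nox4 values raised to the lowest signal well above background on their array, the changes were -4.61 against Cybb, -4.42 against Cyba, -4.43 against Ncf1 and -4.75 against Ncf4, or 24.3-fold, 21.4-fold, 21.5-fold and 26.9-fold lower in fibrosis. That setting was added after seeing the data. The exact two-sided permutation p over the arrays was 0.1 for each of the 4 pairs, and 0.1 after adjustment over them. That is the smallest p that 3 arrays against 3, or 2 against 3 for Cybb, can give. With normexp background correction the changes were smaller, at -3.38 against Cybb, -3.15 against Cyba, -3.23 against Ncf1 and -3.40 against Ncf4. The 4 ratios share the Nox4 values, so they are not independent of one another.

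**Figure D3:**
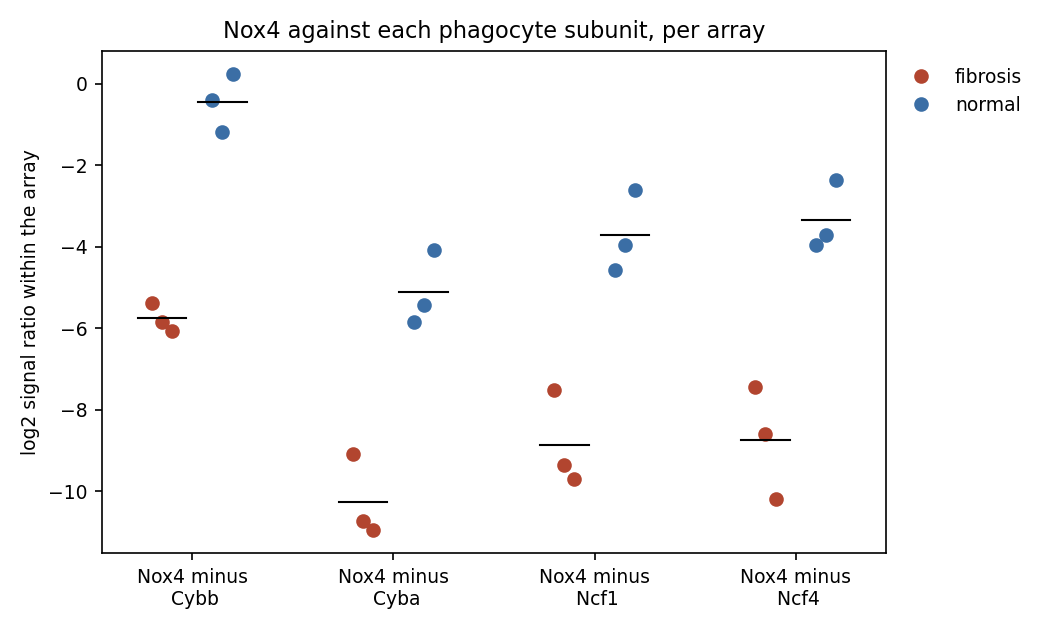
Log2 ratio of the Nox4 signal to the signal of each phagocyte subunit on the same array, with marked spots kept. Each point is 1 array, red for fibrosis and blue for normal liver, in replicate order from left to right, and lines are means of 3 arrays. In all 4 ratios every fibrosis array lies below every normal array, and the vertical position of a pair has no meaning of its own.

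Among the other oxidase genes, 8 of the 10 reported here had a probe. Of the 6 tested with marked spots left out 2 rose and 0 fell in limma, with 3 higher and 0 lower at an unadjusted p under 0.05, and with marked spots kept 3 of 7 rose. The median differences were 1.40 and 1.28, and over all probes 15.2% and 12.4% were called higher in these settings. The oxidase genes of this list that rose encode dual oxidases or the factors that mature them, and dual oxidases release hydrogen peroxide at the surface of epithelial cells. Noxo1 and Ncf1c were not among the named probes and were not analysed here.

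Duoxa2, which matures the DUOX2 enzyme, had log2 signals of -4.90, -4.52 and -3.83 on fibrosis arrays 1, 2 and 3, against -8.42, -8.30 and -8.01 on normal arrays. It was well above background on every fibrosis array and on no normal array. The fitted difference was 3.83 (SE 0.32, adjusted p 0.000152 in limma), and it used normal values that were not well above background. The rise was at least 6.78-fold where each normal array counts at its lowest signal well above background, or at the probe's value if higher. That bound was not tested. Duox1, a dual oxidase, had -1.74, -0.44 and -0.47 on fibrosis arrays, against -2.60, -3.67 and -2.81 on normal arrays, and rose by 2.14 (SE 0.43, adjusted p 0.0105 in limma). Duoxa1, which matures DUOX1, differed by 2.20 (SE 0.80, adjusted p 0.102 in limma) with marked spots left out and by 2.56 (SE 0.71, adjusted p 0.0398 in limma) with them kept. Duox2 differed by 1.28 (SE 0.50, adjusted p 0.118 in limma) with marked spots kept.

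Noxa1, an activator of NOX1, differed by 0.20 (SE 0.35, adjusted p 0.753 in limma). Cybc1, a chaperone that NOX2 and p22phox need to mature, differed by 0.16 (SE 0.24, adjusted p 0.693 in limma) with marked spots kept. Nox3, a catalytic subunit of the inner ear, did not rise well above background on the arrays. Cholangiocyte markers, from the epithelium of the bile ducts, differed alongside the dual oxidases. Of the 12 tested with marked spots kept 10 rose, against 12.4% of all probes called higher. The list's summed signal was 11.3 to 16.8 in fibrosis and 1.63 to 2.01 in normal liver. Dcdc2, a protein of cilia, rose by 6.06 (SE 0.24, adjusted p 1.83e-05 in limma) and Cldn4, a tight junction protein, by 5.20 (SE 0.44, adjusted p 0.000152 in limma), both with marked spots left out. The part of these cells in the dual oxidase differences was not tested.

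**Figure D4:**
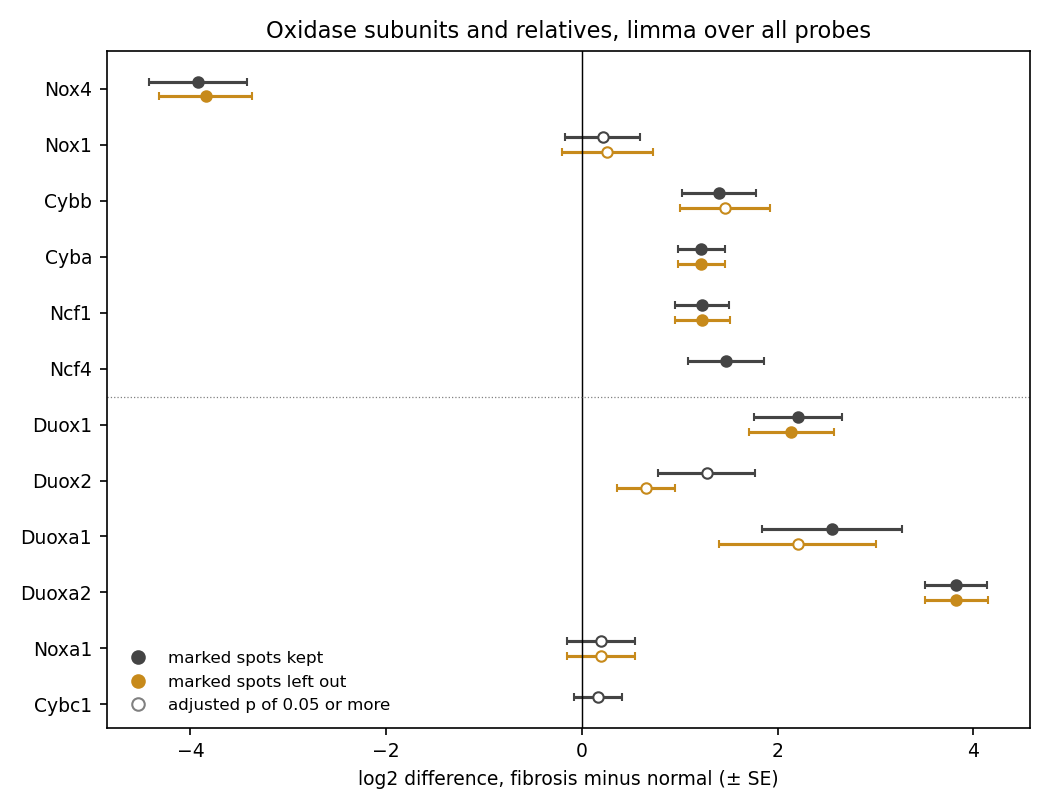
Log2 differences (fibrosis minus normal) with their SE for the 6 subunits, above the dotted line, and for related oxidase genes, below it, from limma over all probes. Dark points keep marked spots, orange points leave them out, and open points had an adjusted p of 0.05 or more. Nox4 alone lies far below 0 among these genes, at -3.85 with marked spots left out, and Duoxa2 is the highest at 3.83, with normal values not well above background.

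Of the small GTPases and signalling proteins that switch the phagocyte oxidase on, 7 of 20 tested rose with marked spots left out and 6 of 27 with them kept. None fell by the test in limma, and 0 were lower at an unadjusted p under 0.05 in both settings. The medians were 0.68 and 0.55. Over all probes, 15.2% were called higher with marked spots left out and 12.4% with them kept. Under quantile normalization and under the array median, 0 of the 20 were called with marked spots left out. With them kept, 5 of the 27 were called higher under quantile normalization and 4 under the array median. Fgr, a Src family kinase of myeloid cells, had -2.80, -3.75 and -2.30 on fibrosis arrays, against -4.98, -4.34 and -5.08 on normal arrays, and rose by 1.85 (SE 0.40, adjusted p 0.0142 in limma). Vav1, which loads Rac with GTP in blood cells, rose by 1.39 (SE 0.32, adjusted p 0.0180 in limma).

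Rac2, the GTPase of the phagocyte complex in blood cells, had 1.88, 1.91 and 2.33 on fibrosis arrays, against 1.55, 1.70 and 1.52 on normal arrays. Its groups did not overlap, and its difference of 0.46 (SE 0.25, adjusted p 0.243 in limma) was not called. Rac1, the widely expressed form, differed by -0.13 (SE 0.34, adjusted p 0.825 in limma) with marked spots kept. Both Rac genes were chosen after their values were seen. Probes of a gene disagreed for Syk, a kinase below Fc receptors, where the brighter probe rose by 1.00 and a dimmer one differed by -0.25 without a call. The call for Prkcb, a protein kinase C that phosphorylates p47phox, came from its dimmer probe at 1.10, and its brighter one was at 0.74 without a call.

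Enzymes that handle superoxide and peroxide were called in both directions. With marked spots left out 2 of 10 tested rose and 1 fell, at a median of -0.67. With them kept 3 of 26 rose and 6 fell, at a median of -0.57. Over all probes 15.2% were called higher and 4.83% lower with marked spots left out, and 12.4% and 6.79% with them kept. The counts called higher are near those shares. The 6 called lower became 12 under scaling to the array median and 1 under quantile normalization, again with marked spots kept. Gpx2, an epithelial glutathione peroxidase, had 0.90, 1.86 and 1.14 on fibrosis arrays, against -1.20, -3.55 and -2.46 on normal arrays, and rose by 3.70 (SE 0.56, adjusted p 0.00258 in limma). Gpx7, a peroxidase of the endoplasmic reticulum, rose by 2.44 (SE 0.30, adjusted p 0.00161 in limma), over 2 fibrosis arrays with unmarked spots. Txnrd1, thioredoxin reductase of the cytosol, fell by 1.30 (SE 0.29, adjusted p 0.0160 in limma).

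Cat, the catalase of peroxisomes, had 0.72, -1.25 and 0.01 on fibrosis arrays, against 0.88, 2.23 and 2.15 on normal arrays with all spots kept. It fell by 1.93 (SE 0.55, adjusted p 0.0434 in limma) in that setting, and with marked spots left out it differed by -1.69 (SE 0.71, adjusted p 0.161 in limma). The other 4 that fell only with marked spots kept were Gpx1, Sod1, Aox1 and Aqp9. Of these Aqp9 is a channel that passes glycerol and peroxide, and Aox1 is an oxidase that produces peroxide and does not remove it. Enzymes that supply NADPH are given as single genes, because that list is reported in part. Idh1, the cytosolic isocitrate dehydrogenase, fell by 1.28 (SE 0.32, adjusted p 0.0262 in limma) with marked spots kept. Tkt, a transketolase, differed by -0.30 (SE 0.23, adjusted p 0.418 in limma) and H6pd, an NADPH source of the endoplasmic reticulum, by -0.57 (SE 0.31, adjusted p 0.279 in limma).

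Markers of the cells that carry the phagocyte oxidase were read beside its subunits. The 4 phagocyte subunits summed to 9.89 to 15.5 times the 75th percentile in fibrosis and to 4.47 to 5.29 times in normal liver. A sum weighs each gene by its probe's signal. On every array Cyba, which NOX1 and NOX4 share, weighed most among the 4, and Cybb, the catalytic subunit, weighed least. The 19 macrophage and Kupffer cell markers on the array, all above background on every array, summed to 65.1 to 66.1 in fibrosis and 48.2 to 56.2 in normal liver. Of these, 2 of 11 tested rose with marked spots left out, at a median of 0.92, and with them kept 3 of 19 rose and 1 fell, at a median of 0.60. These shares are near those of all probes called higher, 15.2% with marked spots left out and 12.4% with them kept. At an unadjusted p under 0.05 in limma, 6 of 11 were higher and 0 lower, and with marked spots kept 8 of 19 higher and 1 lower. Over all probes 4065 of 12620 and 6342 of 19731 had such a p in either direction. Trem2, a lipid receptor of macrophages, rose by 1.28 (SE 0.33, adjusted p 0.0333 in limma) and Msr1, a scavenger receptor, by 1.14 (SE 0.32, adjusted p 0.0449 in limma). Gpnmb, a glycoprotein of macrophages, rose by 1.60 (SE 0.29, adjusted p 0.00659 in limma), and Cd14, the lipopolysaccharide co-receptor, fell by 1.33 (SE 0.28, adjusted p 0.0140 in limma), both with marked spots kept.

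Cd68 and Clec4f, a general macrophage marker and a Kupffer cell lectin, differed by 0.24 and 0.30 with marked spots kept and were not called in limma (adjusted p 0.506 and 0.462). Spi1, the gene of PU.1, had -3.96, -3.85 and -2.68 on fibrosis arrays, against -4.16, -4.64 and -4.46 on normal arrays, and its difference of 0.92 (SE 0.37, adjusted p 0.131 in limma) was not called. These 3 genes were chosen after their values were seen. Neutrophil markers had the larger ratio of summed signal, at 8.69 to 10.6 in fibrosis and 0.50 to 0.816 in normal liver, over 14 genes. Of these 3 of 5 tested rose with marked spots left out and 4 of 6 with them kept, against 15.2% and 12.4% of all probes. Only 3 of the 14 were above background on all arrays. A gene well above background in 1 group alone could be tested, so genes high in fibrosis could enter through that group. The share called is therefore not read as a result about neutrophils. Lcn2, which hepatocytes also make, rose by 4.40 (SE 0.34, adjusted p 0.000132 in limma) with marked spots kept, and without it the sum was 0.815 to 3.83 in fibrosis and 0.260 to 0.431 in normal liver. S100a9 and S100a8, the calprotectin subunits of neutrophils and monocytes, rose by 2.94 and 2.63, with adjusted p of 0.0123 and 0.0108 in limma. Elane, the neutrophil elastase, was above background on no array.

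Of general leukocyte markers, 1 of 6 tested rose with marked spots left out and 2 of 11 with them kept. These shares are near those of all probes called higher, 15.2% and 12.4% in the same settings. At an unadjusted p under 0.05 in limma, 3 of 6 and 5 of 11 leukocyte markers were higher, and 0 were lower in both settings. The list's sum was 28.8 to 32.5 in fibrosis and 18.0 to 22.9 in normal liver. Itgam, the integrin chain of macrophages and neutrophils, rose by 1.80 (SE 0.45, adjusted p 0.0295 in limma), and Fcer1g, an Fc receptor chain, differed by 0.63 (SE 0.23, adjusted p 0.102 in limma). Coro1a, an actin-binding protein of blood cells, rose by 1.23 (SE 0.31, adjusted p 0.0281 in limma) with marked spots kept. The 13 T, B and NK cell markers reported here had sums of 2.21 to 3.19 in fibrosis and 2.18 to 3.34 in normal liver, which overlapped. Cd4, a co-receptor of T cells, differed by 1.06 (SE 0.37, adjusted p 0.0826 in limma). Of the endothelial markers 0 were called in limma in either setting, with 1 lower at an unadjusted p under 0.05, and Kdr differed by -0.75 (SE 0.24, adjusted p 0.0605 in limma). The smooth muscle list had 2 of 6 called higher with marked spots left out, against 15.2% of all probes. They were Des at 2.77 and Tagln at 2.30, with adjusted p of 0.000674 and 0.0215 in limma. Both are also in the stellate cell and myofibroblast list, so they add no separate smooth muscle signal. With marked spots kept 1 of 6 was called higher, against 12.4% of all probes. It was Des, and Tagln then had an adjusted p of 0.0578 in limma. The part of these cells in the subunit differences was not tested.

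**Figure D5:**
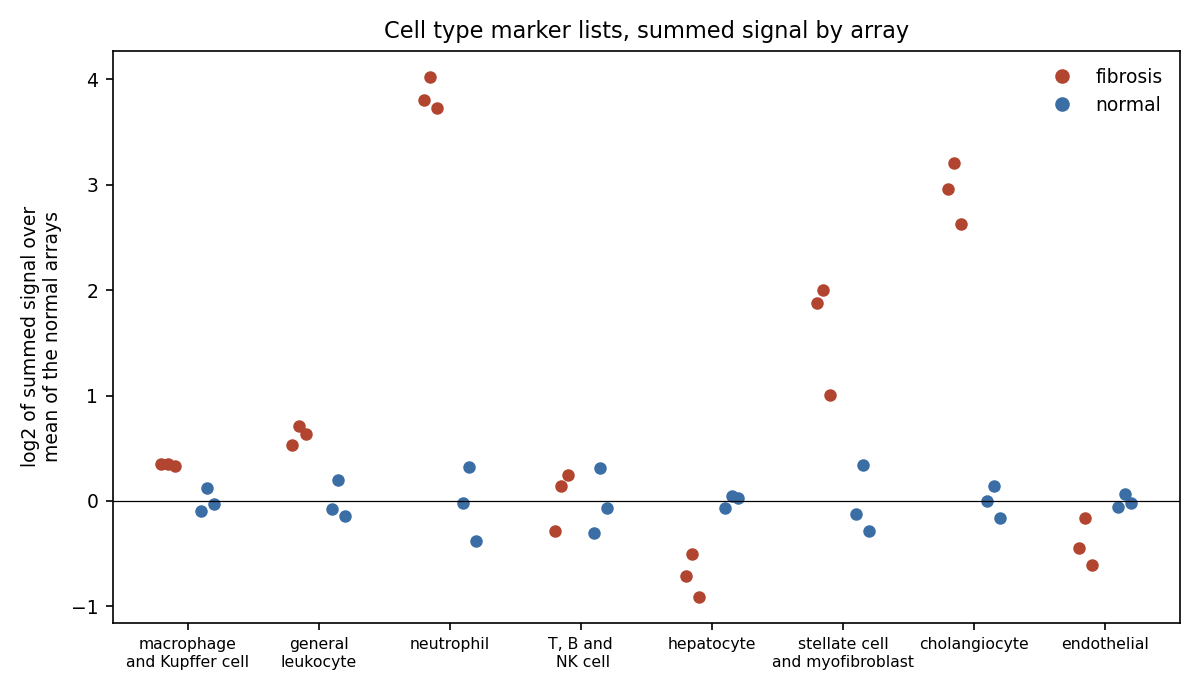
Summed signal of each cell type marker list on each array, as log2 over the mean of the 3 normal arrays, with marked spots kept. Each point is 1 array, red for fibrosis and blue for normal liver. Neutrophil, cholangiocyte, stellate cell, leukocyte and macrophage sums lie higher in fibrosis than in normal liver, hepatocyte and endothelial sums lie lower, and those of T, B and NK cells overlap. The median difference over the endothelial genes was 0.08, with 0 called in limma.

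The genes whose level most resembled Nox4 over the 6 arrays were found by Pearson's r among 12624 named probes with marked spots kept. They were Grsf1, an RNA-binding protein of mitochondria (r 0.999), Stmp1, a small mitochondrial protein (0.997), Hsd3b2, a steroid dehydrogenase (0.997), Ust5r, a transporter of the organic anion family (0.996), and Tex12, a protein of meiotic chromosomes (0.996). Their differences ran over a wide range, at -0.72, -0.94, -1.75, -2.14 and -2.86, and that of Grsf1 was not called (adjusted p 0.0648 in limma). For Cybb they were Eef1akmt1, a lysine methyltransferase (0.997), Casp1, the inflammasome caspase (0.996), Gem, a small GTPase (0.995), Pla2g4a, the phospholipase that releases arachidonic acid (0.993), and Cd68 (0.990). Of these Casp1 rose by 1.10, Gem by 3.08 and Pla2g4a by 1.28 (adjusted p 0.0347, 0.0147 and 0.0220 in limma), while Eef1akmt1 and Cd68 were not called. All 6 arrays fall into the same 2 groups for every probe, and 2 of the Nox4 values lie near background, so these r describe likeness only.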

How the data were processed

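Total RNA from 3 fibrosis and 3 normal rat livers was hybridised to 6 Agilent arrays, 1 per animal. The deposited values are spot intensities written by Agilent Feature Extraction 11.5.1.1, per the file headers. The processed signal column holds intensities after background subtraction, and no normalization between arrays is recorded in the deposited files. Groups come from the labelled tissue. Replicates were numbered in record order and pair no arrays.

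Accessions were named through RefSeq's GRCr8 gene table. Control spots were left out, log2 processed signals were centred on each array's 75th percentile, and spots of 1 probe were averaged, with marked spots left out or kept. Tested probes had at least 0.5 of their spots well above background on every array of 1 group or both, and values on at least 2 arrays of each group. limma 3.58.1 in R 4.3.3 fitted all tested probes, with Benjamini-Hochberg adjustment. The steps were tested on simulated data.

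The members and lists were chosen with earlier results of these data known. All members were named, and of each list up to 2 called genes of largest increase and decrease, or those of smallest p. A gene with several probes stands by its tested probe of highest mean. With no mean spot signal in the files, normexp used the median spot signal, with an offset of 50. Single genes of 4 lists are not reported here and stay out of those lists' counts and sums. The number of arrays limits the precision. Alternatives covered scaling, background correction, filters, the limma options, the slide row as a block and leaving out each array. Probe sequences were not used here, so cross-hybridisation was not examined.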

Additional observations from a re-analysis of the deposited data

How the results depend on the processing

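Nox4 was called lower in fibrosis under all 20 other settings that gave a value, with differences between -4.47 and -2.09 and adjusted p up to 0.0186 in limma. In 1 of these, added after seeing the data, values below background were raised to the array's lowest signal above it (-3.20). It was not tested where a probe had to be well above background on all arrays. The direction of the differences of Cybb, Cyba, Ncf1 and Ncf4 was the same, higher in fibrosis, under every alternative that gave a value. Of the alternatives for these 4 that combine kept marked spots with another choice, quantile normalization was planned and the others were added after seeing the data. Nox1 turned sign under quantile normalization (-0.40), scaling to the array median (-0.22) and leave-one-out (-0.083 to 0.66), and was never called.

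With marked spots left out, Cybb (1.46) became called with marked spots kept (1.40), normexp (1.36), trended and robust eBayes (1.46) and array weights (1.48). Cyba (1.22) lost its call under quantile normalization (1.37), the array median (0.76), the slide row as a block (0.97) and without normal array 3 (leave-one-out range 1.14 to 1.35). Ncf1 (1.23) lost it under quantile normalization (1.07), the array median (0.77), the slide row (0.82), without normal array 2 or 3 (leave-one-out range 1.08 to 1.44) and at an adjusted p under 0.01. Those quantile and median scalings used unmarked spots only, and bright spots were often marked. In these fits Nox4 had adjusted p of 3.85e-12 and 5.70e-13 in limma, against 0.000935 in the main fit. Cyba lost its call under quantile normalization at a larger difference than in the main fit. Calls and counts under both settings thus do not follow the size of the differences alone, and the cause was not tested.

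With marked spots kept, the slide row as a block ended the calls of Cybb (1.94), Cyba (0.97), Ncf1 (0.82) and Ncf4 (1.10). Cybb (1.40) also lost its call under quantile normalization (1.17), the array median (1.08), cyclic loess (1.30), no filter on dim probes (1.40), an adjusted p under 0.01 and without fibrosis array 1 (1.13), normal array 1 (1.06) or normal array 3 (1.49). Ncf4 (1.47) also lost it under the array median (1.16), no filter (1.47), an adjusted p under 0.01 and without normal array 1 (1.46), 2 (1.54) or 3 (1.42). Cyba also lost it without normal array 3 (1.14), and Ncf1 without normal array 2 (1.23) or 3 (1.13) and at an adjusted p under 0.01 (1.23). With normexp the change in the Nox4 ratio was -3.38 against Cybb, -3.15 against Cyba, -3.23 against Ncf1 and -3.40 against Ncf4.

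The 1915 probes called higher became 773 under quantile normalization, 881 under the array median, 862 with all arrays above background, 961 with the slide row, 1105 at an adjusted p under 0.01 and 1228 to 2149 in leave-one-out, lowest without normal array 3. The 610 called lower became 1339 with marked spots kept, 3505 with the array median as well, 1417 with quantile normalization as well, 172 with E1A scaling, 323 without the filter, 310 with all arrays above background, 127 with the slide row, 154 at an adjusted p under 0.01, and 201 to 684 in leave-one-out, where normal arrays 1, 2 and 3 gave 289, 268 and 201. The median of all probes was -0.37 under quantile normalization, -0.48 under the array median and 0.31 under E1A scaling with marked spots left out.

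With marked spots left out, quantile normalization and the array median each gave 0 genes called higher in the oxidase signalling, macrophage and leukocyte lists. Each gave 1 called higher in the smooth muscle list. Quantile normalization also left 1 called higher among other oxidase genes and 4 among stellate cell markers, and the array median gave 2 called lower among peroxide handling enzymes. Keeping marked spots gave 6 called lower among those enzymes, 1 lower each in the NADPH supply and macrophage lists, 2 lower among hepatocyte markers, and 2, 10 and 1 higher among leukocyte, cholangiocyte and smooth muscle markers. Scaling to the array median with marked spots kept gave 9 called lower among hepatocyte markers and 12 among peroxide handling enzymes. It gave 4, 3 and 1 called higher in the oxidase signalling, macrophage and leukocyte lists. Quantile normalization with marked spots kept gave 1 called lower each among hepatocyte markers and peroxide handling enzymes. Called higher there were 5, 5 and 4 in the oxidase signalling, macrophage and leukocyte lists. The causes were not tested.

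No paired analysis was possible because the labels carry no replicate numbers shared between the groups. With marked spots left out, Ncf4 has no value, and neither have Cybb and Nox1 where a left-out array leaves under 2 arrays in a group. Nox4 on fibrosis arrays 2 and 3 was limited by background, and raising it there gave ratio changes between -4.75 and -4.42.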

Other observations

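On each of the 6 arrays the same 1 of the 2 Nox4 spots was the brighter. The pairs of processed signals were 56.6 and 79.7, 16.0 and 25.7, and 18.5 and 20.5 units on fibrosis arrays 1, 2 and 3, against 198 and 224, 257 and 371, and 491 and 684 on normal arrays 1, 2 and 3. On the log2 scale the spots of an array differed by less than the gap between the groups. In signal units this did not hold for normal array 3, at 491 and 684.

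The probes of Me1, the malic enzyme that supplies NADPH, disagreed in size with marked spots kept. The brighter probe differed by -0.76 (SE 0.25, adjusted p 0.0701 in limma) and the dimmer one by -1.83 (SE 0.24, adjusted p 0.00154 in limma). Me1 was chosen after its values were seen.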
